A study of Homo sapiens with 15 samples.

Results

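The cytosolic ribosomal proteins are the protein subunits of the ribosome that works in the cytoplasm. They were taken from the gene table as protein-coding genes whose symbol is RPL or RPS followed by a number and at most 1 further letter A, X or L, together with RPLP0, RPLP1, RPLP2 and RPSA. This rule used names only and gave 81 of 58735 genes, of which 46 belong to the large subunit, 3 to the P stalk and 32 to the small subunit. The genes lie on 21 chromosomes. The RNA came from A549, a lung adenocarcinoma cell line that the labels describe as type II alveolar epithelial cells. For 24 h, cells were given 100 µg/mL of fine urban particulate matter (PM2.5). The labels name 4 preparations, CDSUM, CDWIN, CQSUM and CQWIN, and the control cells received the same volume of DMSO. Each of the 5 groups had 3 libraries, 15 in all. The series title places the particulate matter in southwestern China; what the codes stand for is not spelled out, so they are kept as labels. All groups share 1 cell line. Separate cultures are not stated, so p-values here measure only the spread between libraries, which may be technical.

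Each ribosome carries a single copy of most of these proteins, around a core of ribosomal RNA: the large subunit joins amino acids, the small subunit reads the mRNA, and the P stalk of RPLP0, RPLP1 and RPLP2 recruits the elongation factors. Their mRNAs are short and among the most abundant of a dividing cell. Most begin with a C followed by further pyrimidines, the 5′ terminal oligopyrimidine (TOP) tract, which ties their translation and stability to growth signalling through mTORC1 and the binding protein LARP1.

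The start sites of members discussed below are printed to show this shared feature, in members with large and with small differences from DMSO. Each line holds 20 bases before and 10 bases from the RefSeq start (GRCh38.p14), in lower case, with the pyrimidine tract that begins at the start in capitals. RPL31, RPL39, RPL34, RPS27, RPS23 and RPL41 rose by over 2-fold with CDSUM and with CDWIN, RPL28, RPLP2 and RPL7A did not pass the test in either, and RPL14 rose with CDWIN and CQSUM.
RPL31, chr2:101002269-101002298, plus strand: ctcccacaatccttcgcgctCTTCCTTTCC
RPL39, chrX:119791621-119791650, minus strand: gctcgttcttccgccagcttCCCTCCTCTT
RPL34, chr4:108620556-108620585, plus strand: ctggcaaaggcttttttcttCCTCTTCCgg
RPS27, chr1:153990742-153990771, plus strand: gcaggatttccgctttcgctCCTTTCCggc
RPS23, chr5:82278345-82278374, minus strand: ctccttcctgcggtgcttctCTCTTTCgct
RPL41, chr12:56116613-56116642, plus strand: gtagacggaacttcgcctttCTCTCggcct
RPL28, chr19:55385912-55385941, plus strand: tcgcctcgcccctcgccttcCTCTTTCCgt
RPL14, chr3:40457319-40457348, plus strand: gggttgggcgggtcttcttcCTTCTCgcct
RPLP2, chr11:809947-809976, plus strand: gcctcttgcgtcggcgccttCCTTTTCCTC
RPL7A, chr9:133348198-133348227, plus strand: attacccacaattccctttcCTTTCTCTCT
The table of RefSeq starts matched 64 of the 81 members by symbol. A tract of C followed by at least 4 further C or T on the sense strand began exactly at the start in 42 of the 64 (65.6%), against 4.07% of all 35116 windows. It began within 5 bases of the start in 50 members (78.1%), against 21.1% of all windows. RPS27A and the paralog RPS27L had no such tract within that distance. The match is of letters only and depends on where the annotation puts the start.

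Library totals ran from 17583532 (CQWIN 3) to 19216323 (CQSUM 1) counts. Of the 58735 genes, 15565 passed the filter on low counts, and 80 members were among them. The exception, RPL10L, a retrogene used in the testis, had no count in any of the 15 libraries, where 3 counts would be the limit for each. The epithelial markers (KRT8, KRT18, EPCAM and 3 others) were all expressed, summing to between 6081 and 8269 CPM (counts scaled to a common library depth) in the 12 exposed libraries, against 12826 to 16056 CPM in DMSO. KRT8 and KRT18 make up most of this sum and fell: with CDSUM 4 of the 6 fell, while KRT19 (0.70 ± 0.17) and the scarce EPCAM (1.97 ± 0.39) rose. Of the 8 markers of alveolar type II cells, only 2 passed the filter, and SFTPA1 and SFTPA2 were at 0 in every library. Their sum was 42.1 to 68.2 CPM in exposed libraries, against 75.8 to 87.6 CPM in DMSO. Of 5 leukocyte and 6 fibroblast and endothelial markers, 1 of each list passed the filter. The part of these marker shifts in the results below was not tested.

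The members took a larger share of all counts in every exposed group than in DMSO, on average. The share was 18.3%, 18.4% and 17.0% in the CDSUM libraries and 16.8%, 18.4% and 16.5% in the CDWIN libraries. It was 13.2%, 16.7% and 13.8% with CQSUM, then 15.7%, 13.6% and 9.57% with CQWIN, against 9.55%, 11.7% and 10.0% in DMSO. All CDSUM, CDWIN and CQSUM libraries were above all DMSO libraries, whereas CQWIN 3 lay at the level of the lowest DMSO library. The group means were 17.9 ± 0.775%, 17.3 ± 1.02%, 14.6 ± 1.87% and 13.0 ± 3.13% for CDSUM, CDWIN, CQSUM and CQWIN, against 10.4 ± 1.11% in DMSO (SD, n = 3 each). The 95% Wilson score intervals of single libraries were within 0.0179 percentage points of the value, and cover counting error only. In bulk RNA, fewer cells of a kind and less RNA per cell cannot be told apart, and a share of counts says nothing of the amount of RNA per cell.

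**Figure D1:**
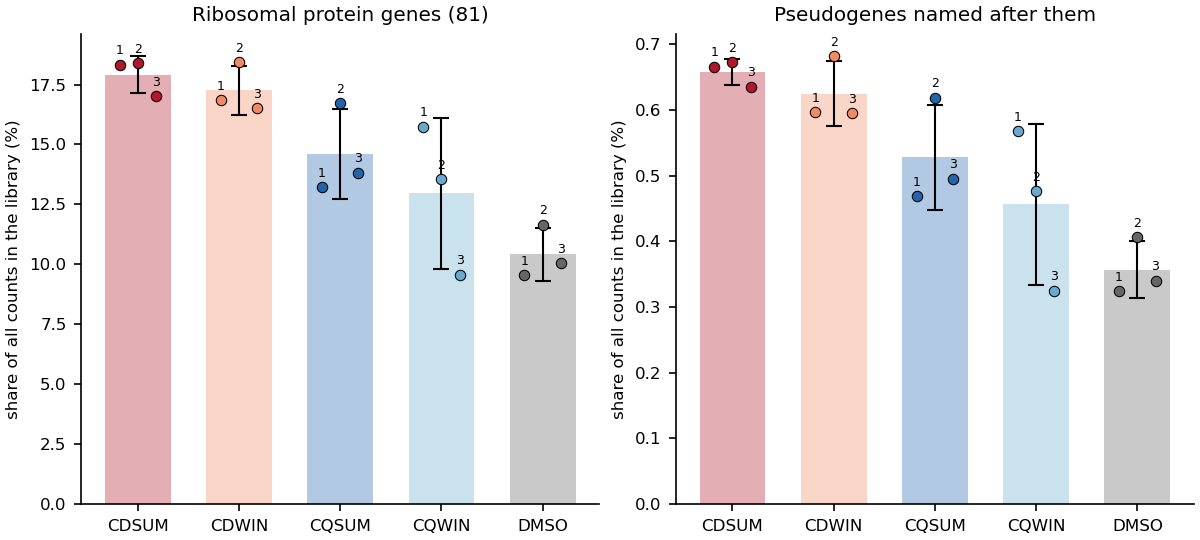
Percent of all counts that fell in the 81 ribosomal protein genes (left) and in pseudogenes named after them (right). Bars are group means with SD and points are the 3 numbered libraries of each group; the members' mean ran from 17.9% (CDSUM) to 13.0% (CQWIN) among exposed groups, against 10.4% in DMSO, and the CQWIN libraries were the most spread.

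Reads from pseudogenes named after ribosomal proteins took 0.658% (CDSUM), 0.625% (CDWIN), 0.528% (CQSUM) and 0.456% (CQWIN) of counts, against 0.357% in DMSO. Set against the members, this was 3.68, 3.62, 3.61 and 3.50 pseudogene counts for every 100 member counts, against 3.42 in DMSO, so both moved nearly together. Within a group, the median coefficient of variation over members was 8.10% (CDSUM), 9.45% (CDWIN), 21.9% (CQSUM) and 35.6% (CQWIN), against 16.3% in DMSO. The median spread between libraries was thus wider in the CQ groups than in the CD groups. The SE given below come from 1 fit whose estimate of spread is shared by all groups, so they do not show this difference.

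Levels within the set were compared per kilobase of coding sequence, in DMSO, where the highest was RPL41 (23778 ± 4132 CPM per kb; SD, n = 3 here and below), the shortest member at 75 coding bases. RPS19, a small-subunit protein mutated in Diamond-Blackfan anaemia, followed with 8891 ± 1519 and RPLP1 with 8680 ± 1714 CPM per kb, and these neighbours did not differ beyond their spread. RPL13A, RPS16 and RPS2 came next. At the low end stood RPL3L, the striated-muscle paralog of RPL3, at 0.559 CPM per kb, RPS10 at 2.27, RPL36A at 10.1 and RPL17 at 45.2. Mature small subunits contain RPS10, and most reads of the RPS10 family were placed in pseudogenes, as given below. With those reads added, RPS10 still had only 8.30 CPM in DMSO. Pseudogenes held 1.94% of the RPL36A family's counts and 0.721% of the RPL17 family's. RPS10, RPL36A and RPL17 each overlap a protein-coding gene on the same strand (RPS10-NUDT3, RPL36A-HNRNPH2 and RPL17-C18orf32). Whether reads shared with these genes went uncounted was not tested. Among paralogs, RPL39L stood at 309 CPM per kb where RPL39 had 3758, and RPS27L at 918 where RPS27 had 2966.

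With CDSUM, nearly the whole set was more abundant relative to other RNAs than with DMSO. Of the 80 members tested, 70 rose and 0 fell at an adjusted p under 0.05, where 15.3% of all tested genes rose and 31.2% fell. All calls and adjusted p-values in the text come from edgeR's quasi-likelihood test with Benjamini-Hochberg adjustment over all 15565 genes, and fold changes are on the log2 scale, ± SE. The median log2 fold change over members was 0.94, against -0.25 over all genes tested. It was 0.13 over the 1647 other genes with a mean of at least 100 CPM over all 15 libraries. At an unadjusted p under 0.05, 72 members were higher and 0 lower, and DESeq2 and limma called 73 and 72 members. In 72 members every CDSUM library lay above every DMSO library (21.3% of all genes).

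In the large subunit 38 of 45 tested members rose with CDSUM (median 0.93). RPL31, next to the exit of the peptide tunnel (chromosome 2, GRCh38 101001715 to 101024032), had 2086, 2144 and 1905 CPM with CDSUM, against 613, 803 and 601 CPM in DMSO. The groups were far apart, and its log2 fold change of 1.61 ± 0.27 (3.04-fold, adjusted p = 4.16e-04) was the largest of the set. RPL39, which lines that tunnel, had 1737, 1833 and 1516 CPM, against 518, 692 and 515 CPM in DMSO (1.56 ± 0.28, adjusted p = 5.39e-04). RPL34 had 772, 796 and 683 CPM, against 248, 322 and 239.8 CPM in DMSO (1.48 ± 0.28, adjusted p = 7.94e-04). RPL7 rose by 1.46 ± 0.26, and the tiny basic protein RPL41 by 1.35 ± 0.26. Both partners of the 5S RNA that can bind MDM2, RPL5 and RPL11, rose, by 1.16 ± 0.21 and 0.62 ± 0.18. RPL3 and RPL10, which shape the peptidyl transferase region, rose by 0.68 ± 0.19 and 0.81 ± 0.21, and RPL22, which is dispensable in many cells, by 0.77 ± 0.18. Large-subunit members that did not pass the test included RPL28 (0.12 ± 0.20, adjusted p = 0.66), RPL14 (0.02 ± 0.17, adjusted p = 0.931), RPL7A (0.26 ± 0.17), RPL8 (0.36 ± 0.22) and RPL13 (0.50 ± 0.22, adjusted p = 0.0651). The remaining ones, RPL36A and RPL3L, had under 5 CPM in every library.

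In the small subunit 30 of 32 members rose with CDSUM (median 1.02). RPS27A, made as a fusion with ubiquitin (chromosome 2, 55231903 to 55235853), had 2882, 2858 and 2607 CPM, against 885, 1221 and 921 CPM in DMSO, a difference of 1.46 ± 0.27 (adjusted p = 6.40e-04). RPS27, a zinc-finger protein (chromosome 1, 153990755 to 153992155), had 2082, 2148 and 1864 CPM, against 682, 880.4 and 679.9 CPM in DMSO (1.44 ± 0.25, adjusted p = 5.12e-04). In both, the lowest CDSUM library was above the highest DMSO library. RPS23, at the decoding centre, rose by 1.36 ± 0.25 and RPS29 by 1.41 ± 0.28. Smaller rises were found for RPSA, also known as the laminin receptor (0.89 ± 0.23), RPS28 (0.84 ± 0.22), RPS3 (0.83 ± 0.22), which lines the mRNA entry, and RPS19 (0.76 ± 0.23). RPS6, the substrate of S6 kinase, rose by 0.63 ± 0.20, the X-linked RPS4X by 0.60 ± 0.20, and RPS26, at the mRNA exit, by 0.51 ± 0.18.

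In the P stalk 2 of 3 members passed the test with CDSUM, and 3 of 3 had an unadjusted p under 0.05. RPLP0, the base of the stalk (chromosome 12, 120196686 to 120201235), had 7063, 6868 and 5699 CPM with CDSUM, against 3292, 4461 and 3633 CPM in DMSO (0.79 ± 0.22, adjusted p = 0.00865). RPLP1 rose by 0.90 ± 0.25. Its partner RPLP2 had 1356, 1309.8 and 1203 CPM, against 884, 1159 and 906 CPM, and did not pass the test (0.39 ± 0.17, adjusted p = 0.0614), although the libraries of the groups did not overlap.

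**Figure D2:**
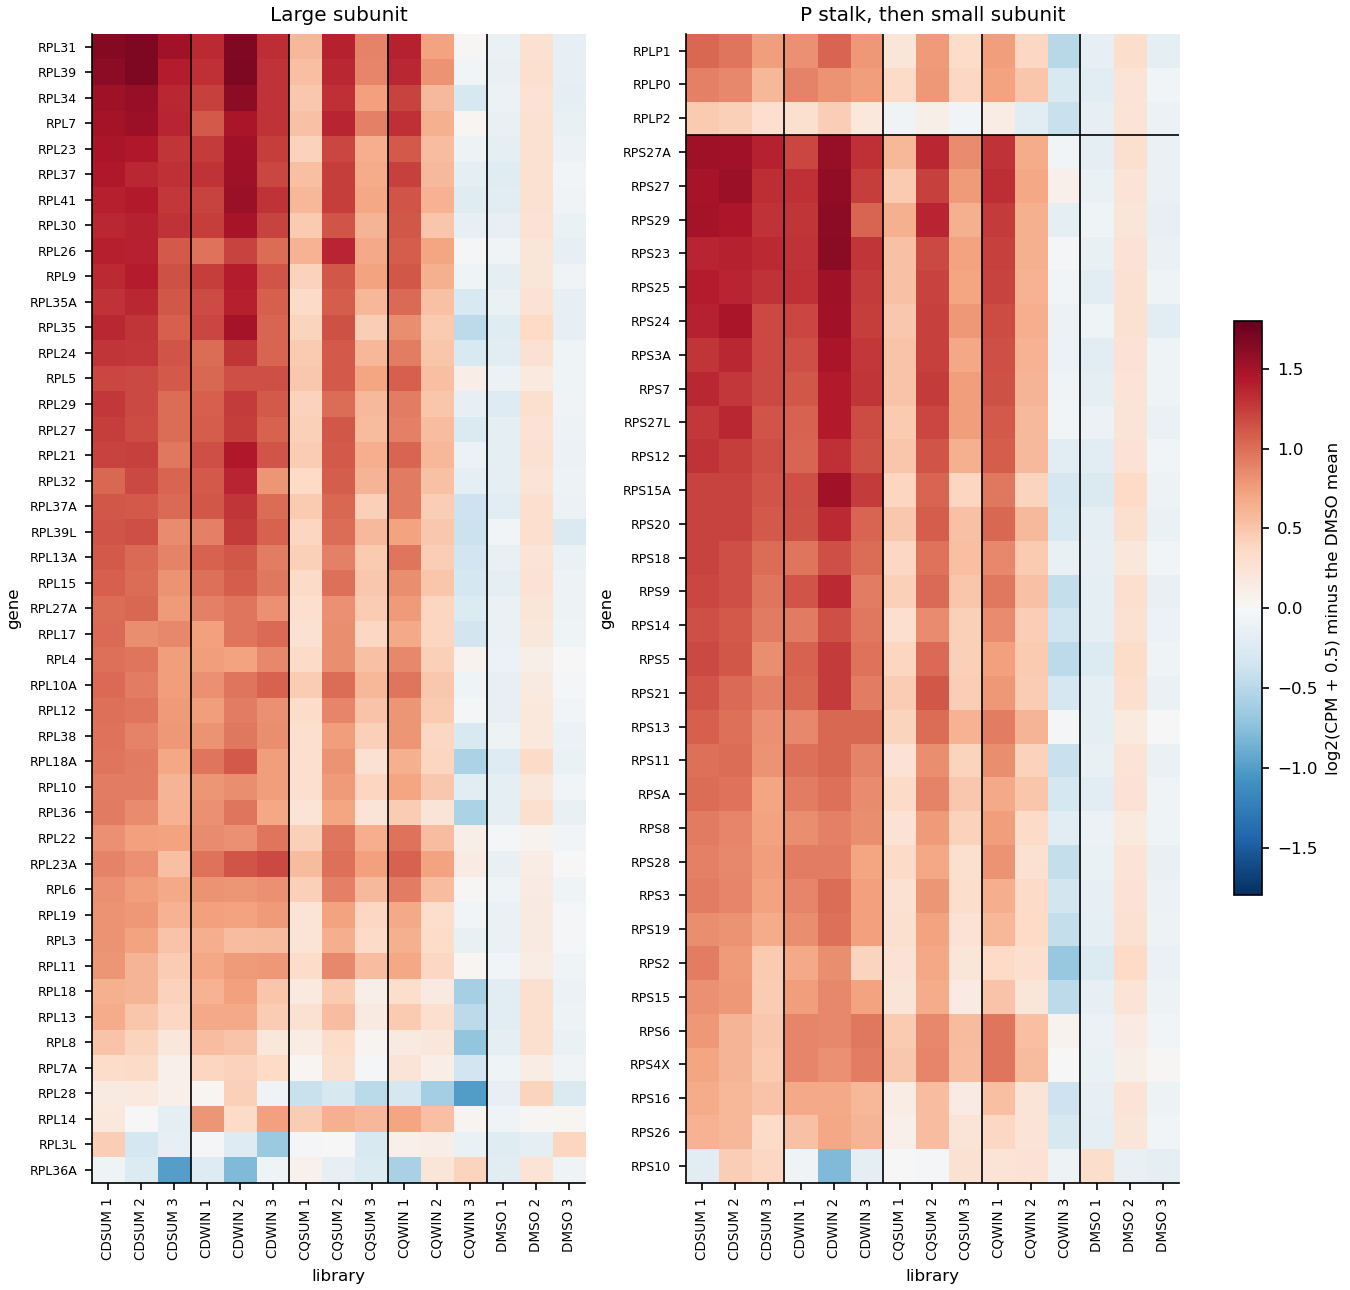
Log2(CPM + 0.5) of 79 of the 80 tested members in each of the 15 libraries, minus the mean over DMSO libraries, large subunit on the left and P stalk and small subunit on the right, ordered by the CDSUM difference. Most members move with their library: CQSUM 2 and CQWIN 1 are the highest of their groups, and CQWIN 3 lies near or below DMSO, with RPL28 (655 CPM) the furthest below.

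With CDWIN, 71 of 80 members rose and 0 fell (18.4% of all genes rose and 23.3% fell), with a median of 0.99, against -0.11 over all genes and 0.20 over the other abundant genes. At an unadjusted p under 0.05, 74 members were higher and 0 lower, and DESeq2 and limma called 74 and 71. The libraries did not overlap in 74 members (22.9% of all genes). By role, 40 of 45 large-subunit members (median 1.00), 29 of 32 small-subunit members (median 1.02) and 2 of 3 stalk members rose.

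The largest rises with CDWIN were again in RPL31, with 1689, 2109 and 1673 CPM, against 613, 803 and 601 CPM in DMSO (1.44 ± 0.27, adjusted p = 6.83e-04), and RPL39 (1.43 ± 0.28). RPS23 had 1326, 1665 and 1318 CPM, against 489.6, 644 and 497 CPM in DMSO (1.40 ± 0.25, adjusted p = 5.26e-04). RPS27 (1.38 ± 0.25), RPL34 (1.38 ± 0.28), RPS27A (1.36 ± 0.27), RPL41 (1.35 ± 0.26), RPS29 (1.33 ± 0.28) and RPL7 (1.29 ± 0.26) were among the members that also rose. RPL5 rose by 1.12 ± 0.21, RPL11 by 0.74 ± 0.18, RPL22 by 0.88 ± 0.18, RPL3 by 0.59 ± 0.19 and RPL10 by 0.79 ± 0.21. RPL14 rose here, with 530.3, 388 and 509 CPM, against 293, 309 and 312 CPM in DMSO (0.64 ± 0.17, adjusted p = 0.00651). In the small subunit RPSA (0.91 ± 0.23), RPS6 (0.89 ± 0.20), RPS3 (0.87 ± 0.22), RPS4X (0.87 ± 0.20), RPS28 (0.85 ± 0.22), RPS19 (0.85 ± 0.23) and RPS26 (0.60 ± 0.18) rose. RPLP0 (0.80 ± 0.22) and RPLP1 (0.87 ± 0.25) rose, and RPLP2 gave 0.30 ± 0.17 (adjusted p = 0.162). RPL28 had 1347, 1763 and 1256 CPM, against 1189, 1734 and 1099 CPM in DMSO, groups that overlapped (0.12 ± 0.20).

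With CQSUM, 42 of 80 members rose and 0 fell (13.7% of all genes rose and 18.8% fell), with a median of 0.64, against -0.00 over all genes and 0.13 over the other abundant genes. At an unadjusted p under 0.05, 61 members were higher and 1 lower, DESeq2 called 59 and limma 35. In 62 members the libraries did not overlap (23.7% of all genes). The count rested on single libraries: it was 1 without CQSUM 2, 6 without DMSO 1 and 9 without DMSO 3. It was 72 without CQWIN 3, a library of another group whose removal also moved the scaling, so that the median over all genes was then 0.19. The member median was 0.45 without CQSUM 2 and 0.83 without CQWIN 3.

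RPL31 had 1009.7, 1745 and 1232 CPM with CQSUM, against 613, 803 and 601 CPM in DMSO (0.98 ± 0.27, adjusted p = 0.00951). CQSUM 2 was the highest CQSUM library in this gene, as in 78 of 80 members, and the lowest CQSUM library was still above DMSO. RPL7 (0.96 ± 0.26), RPS27A (0.96 ± 0.26), RPL39 (0.95 ± 0.27), RPL26 (0.94 ± 0.23) and RPS29 (0.92 ± 0.27) came next. RPL26, at the tunnel exit, had 90.1, 152 and 94.2 CPM, against 55.5, 67.6 and 52.7 CPM in DMSO. RPL34 (0.87 ± 0.28), RPL41 (0.86 ± 0.26), RPS27 (0.84 ± 0.25), RPL5 (0.78 ± 0.21), RPL22 (0.70 ± 0.18), RPS4X (0.65 ± 0.20), RPS6 (0.64 ± 0.20) and RPL11 (0.60 ± 0.18) also rose. RPSA (0.58 ± 0.23, adjusted p = 0.0545), RPLP0 (0.51 ± 0.22), RPL10 (0.49 ± 0.21), RPS3 (0.47 ± 0.22), RPLP1 (0.44 ± 0.25), RPS28 (0.44 ± 0.22), RPS19 (0.43 ± 0.23), RPL3 (0.42 ± 0.19) and RPS26 (0.30 ± 0.18) did not pass the test. RPLP2 gave -0.01 ± 0.17. RPL28 had 998, 1070.2 and 934 CPM, all below the 1189, 1734 and 1099 CPM of DMSO, and did not pass the test (-0.42 ± 0.20, adjusted p = 0.116).

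With CQWIN, 14 of 80 members rose and 1 fell, where 11.6% of all genes rose and 15.8% fell. The median was 0.44, against 0.02 over all genes and 0.05 over the other abundant genes, and 75 of 80 members had a positive log2 fold change. At an unadjusted p under 0.05, 34 members were higher and 1 lower. DESeq2 called 32 members and limma 4, against 15 here. A fit to only the compared groups called 0, and 5 were called with the GC trend removed. Only 3 members had no overlap between CQWIN and DMSO libraries with CQWIN higher (16.7% of all genes), and CQWIN 3 lay at or below the highest DMSO library in 76 of 80. The count of 15 called in either direction (27.4% of all genes) was 1 without CQWIN 1 and 1 without DMSO 1, 2 without DMSO 3, and 70 without CQWIN 3, which also moved the median over all genes to 0.17. The member median was 0.18 without CQWIN 1 and 0.85 without CQWIN 3. The count of called members was 7 to 9 without CDSUM 1, CDSUM 2, CDSUM 3, CDWIN 1, CDWIN 3 or CQSUM 3. These libraries are not in the comparison but enter the filter, the shared estimate of spread and the scaling.

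RPL23A, at the tunnel exit, had 1485, 1177 and 791 CPM with CQWIN, against 647, 781 and 712 CPM in DMSO (0.69 ± 0.20, adjusted p = 0.0156). RPL22 had 175, 131 and 95.7 CPM, against 87.1, 92.9 and 85.8 CPM in DMSO (0.60 ± 0.18, adjusted p = 0.0201). Both rose with every CQWIN library above DMSO, if narrowly for CQWIN 3. RPL31 had 1744, 1095 and 673 CPM, against 613, 803 and 601 CPM in DMSO (0.80 ± 0.26, adjusted p = 0.031), groups that overlapped. RPL39 (0.80 ± 0.27), RPS27 (0.78 ± 0.25), RPL7 (0.74 ± 0.26), RPS27A (0.73 ± 0.26), RPS23 (0.70 ± 0.24), RPL26 (0.65 ± 0.23), RPL5 (0.63 ± 0.21), RPS6 (0.56 ± 0.20) and RPS4X (0.56 ± 0.20) rose as well. RPL34 (0.62 ± 0.28), RPL41 (0.60 ± 0.26), RPL11 (0.39 ± 0.18), RPL10 (0.37 ± 0.21), RPLP0 (0.36 ± 0.22), RPSA (0.33 ± 0.23), RPL3 (0.31 ± 0.19), RPS28 (0.29 ± 0.22), RPLP1 (0.28 ± 0.25), RPS3 (0.27 ± 0.22), RPS19 (0.23 ± 0.23) and RPS26 (0.13 ± 0.18) did not pass the test.

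RPL28, a large-subunit protein without a bacterial counterpart (chromosome 19, 55385345 to 55403250, plus strand), was the member that fell. It had 1064, 857 and 655 CPM with CQWIN, against 1189, 1734 and 1099 CPM in DMSO, a difference of -0.64 ± 0.20 (1.56-fold lower, adjusted p = 0.0241). All 3 CQWIN libraries were below all DMSO libraries. The call varied with the processing. With DESeq2 size factors, upper quartile scaling, limma, the GC trend removed or only the compared groups, 0 members were called lower. The same held without DMSO 2, CQWIN 2 or CQWIN 3. The log2 fold change of RPL28 stayed negative in all 31 alternatives, from -0.88 to -0.05. UBE2S lies over RPL28 on the opposite strand and had 238194 counts over the 15 libraries where RPL28 had 337173. No source used here states whether counting used strand, so reads of both genes cannot be told apart.

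The 4 comparisons share the DMSO libraries, so their calls are set side by side and are not independent. RPL5, RPL6, RPL7, RPL22, RPL23A, RPL26, RPL31, RPL39, RPS4X, RPS6, RPS23, RPS25, RPS27 and RPS27A rose in all 4, which is 14 members, where 5.93% of all genes rose in all 4. A further 27 members rose in 3 comparisons, 29 in 2, and 2 in 1 (RPL13 with CDWIN, RPS2 with CDSUM). In the authors' deposited table, 75, 75, 65 and 5 members were higher than DMSO at an adjusted p under 0.05 with CDSUM, CDWIN, CQSUM and CQWIN, and 0 were lower. The share of all genes past that limit in the authors' table was not counted, so these counts have no background to be read against. Tested members that rose in none included RPL28, RPL36A, RPL3L, RPL7A, RPL8, RPLP2 and RPS10. Of these, RPL7A had 2493, 2511 and 2103 CPM with CDSUM, against 1882, 2179.8 and 1887 CPM in DMSO. RPL36A, RPL3L and RPS10 had under 5 CPM in every library.

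Between preparations whose codes share the first 2 letters, 1 member passed the test in CDWIN against CDSUM and 0 in CQWIN against CQSUM. RPL14, a surface protein of the large subunit (chromosome 3, 40457292 to 40468587), was the 1 member higher with CDWIN than with CDSUM (8.17% of all genes; 0 were lower, where 0.244% of all genes were). It had 530.3, 388 and 509 CPM with CDWIN, against 349, 307 and 272 CPM with CDSUM, a difference of 0.62 ± 0.17 (adjusted p = 0.0298). Without CDSUM 2, CDSUM 3, CDWIN 1, CDWIN 3 or CQWIN 2 the count was 0. In CQWIN against CQSUM, 0 members were called by edgeR, by DESeq2 and by limma (0.0128% of all genes were higher and 0.00642% lower), with 0 members at an unadjusted p under 0.05. The median difference was -0.19, and 77 of 80 members were negative. The interaction, which sets the first of these differences (CDWIN over CDSUM) against the second (CQWIN over CQSUM), gave 0 calls by all 3 tools (1.99% of all genes were higher and 0.0385% lower), 1 member at an unadjusted p under 0.05 and a median of 0.19. Without CDWIN 2 the interaction had 1 call.

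Between CD and CQ preparations most members were higher in the CD one, while few or none passed the test fitted over all groups. In CDSUM against CQSUM the median was 0.39 and 25 members had every CDSUM library above every CQSUM library (9.32% of all genes), but 0 members were called higher (0.167% of all genes). RPL14 was the 1 member called lower (13.7% of all genes), with 349, 307 and 272 CPM with CDSUM, against 417, 476 and 461 CPM with CQSUM (-0.55 ± 0.17, adjusted p = 0.0399). At an unadjusted p under 0.05, 14 were higher and 1 lower, DESeq2 called 1 and limma 0. The authors' deposited table has 57 members higher and 1 lower in this comparison, at an adjusted p under 0.05. Its share of all genes was not counted. A fit to only the compared groups called 26 higher and 1 lower, and the fit with no filter 43 higher. The count of calls was 17 without CQWIN 3, 6 without CQWIN 1 and 5 without CQSUM 2. It was 0 without DMSO 1, DMSO 2, DMSO 3, CDSUM 2, CDSUM 3, CQSUM 1, CQSUM 3 or CQWIN 2. In CDWIN against CQWIN the median was 0.60, against -0.05 over all genes, and 49 members did not overlap (6.55% of all genes). Here edgeR, DESeq2 and limma called 0 members (0.00642% of all genes were higher), 62 were higher at an unadjusted p under 0.05, and without CQWIN 1 the count was 64.

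**Figure D3:**
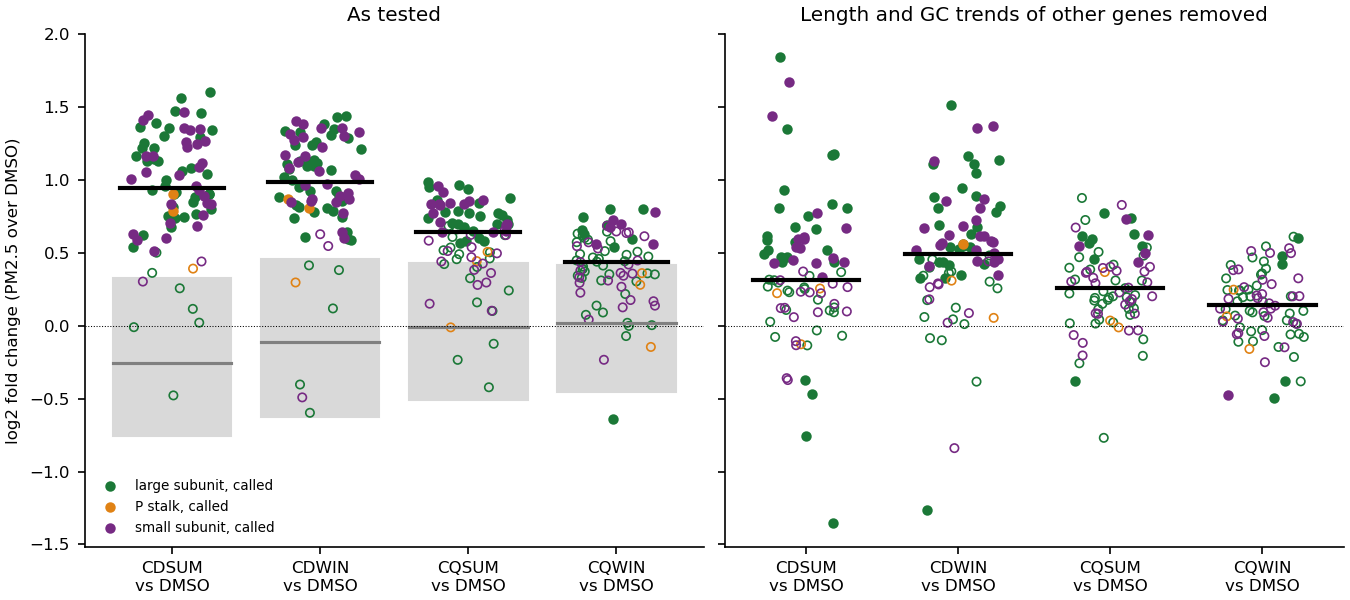
Log2 fold change against DMSO of each of the 80 tested members in the 4 comparisons, as tested (left) and with the transcript length and GC trends of other genes removed from each library (right). Filled points passed an adjusted p under 0.05, open points did not, black lines are member medians, and the grey box and line on the left are the interquartile range and median of other genes; the medians were 0.94, 0.99, 0.64 and 0.44 on the left and 0.31, 0.49, 0.26 and 0.15 on the right.

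Length and base composition moved with these results. Members' annotated transcripts had a median length of 815 bases and coding sequences of 456, where other tested genes had 2625 and 1401 bases. Among other genes, those in the shortest class also had positive medians. With CDSUM, transcripts over 500 and up to 1000 bases had a median of 0.99 in the 44 members of that class and 0.49 in other genes. Transcripts over 2500 bases had 1.25 in 7 members and -0.57 in other genes. With CQWIN the same classes gave 0.44 and 0.59 in members and 0.27 and -0.07 in other genes. Members had higher medians than other genes of their transcript length class in all 5 classes of each comparison with DMSO. No member's coding sequence exceeded 1281 bases, and by coding length medians were also higher in each class with members. With CQWIN, 11.4% of members and 13.0% of other genes with transcripts over 500 and up to 1000 bases were called higher. In the other transcript classes members had the larger share. For coding sequences up to 500 bases the shares were 18.4% and 22.8%, and members had the smaller share in the longer classes too.

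Members of low GC content had the larger differences. With CDSUM the 15 members under 45% GC had a median of 1.30 and all 15 rose, where the 19 members over 55% had a median of 0.68 and 13 rose. With CQWIN the medians were 0.63 and 0.17, and 7 of 15 and 0 of 19 rose. Over the 80 members, Spearman's rho between GC and log2 fold change was -0.50 with CDSUM, -0.51 with CDWIN, -0.63 with CQSUM and -0.67 with CQWIN. These are descriptions over genes that share libraries and the DMSO values. Other genes also had a GC trend, given here as log2 CPM for each 10 percentage points. The slopes were 0.20, 0.22 and 0.24 in CDSUM libraries and -0.16, 0.16 and -0.21 in CDWIN libraries. They were -0.20, -0.09 and -0.19 with CQSUM and -0.13, -0.23 and -0.17 with CQWIN, against 0.14, 0.32 and 0.09 in DMSO. The part of this trend in the values of rho was not tested.

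**Figure D4:**
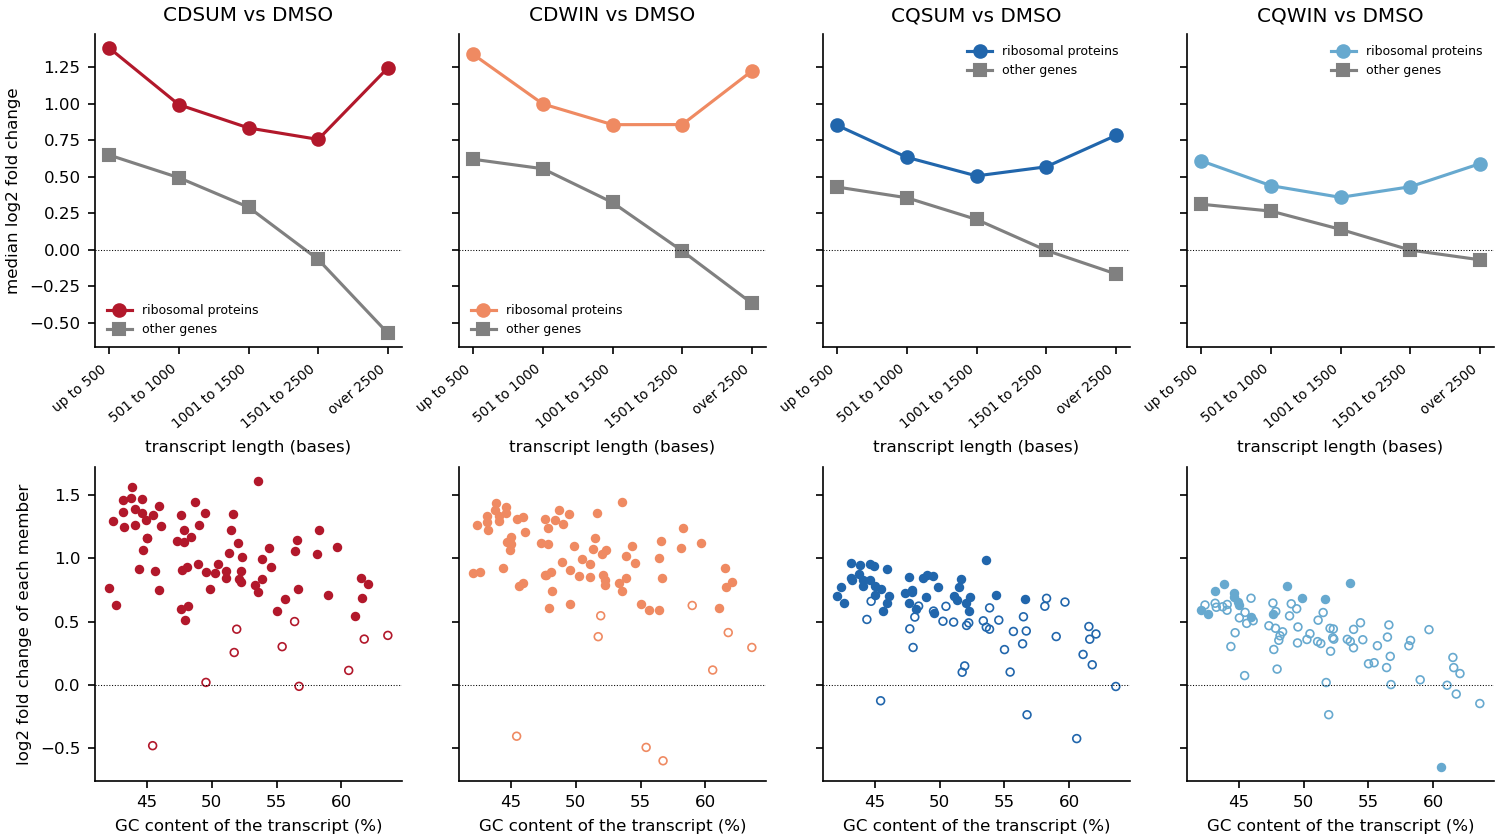
Top, median log2 fold change against DMSO by transcript length class in bases, for members and other genes; bottom, log2 fold change of each member against the GC percentage of its transcript, with filled points for members past an adjusted p under 0.05. Other genes had higher medians in the shorter classes, members lay above other genes in each class, with members over 2500 bases among the highest (1.25 with CDSUM), and members with more GC had smaller differences, with rho of -0.50, -0.51, -0.63 and -0.67.

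The length trend differed between libraries of 1 group. Over other genes, the change in log2 CPM for each doubling of transcript length was -0.211, -0.188 and -0.131 in CDSUM libraries and -0.0646, -0.134 and -0.0435 in CDWIN libraries. It was 0.0937, -0.0988 and 0.052 with CQSUM, and -0.096, 0.0837 and 0.234 with CQWIN, against 0.212, 0.0752 and 0.216 in DMSO. The members' median against DMSO followed it, at 0.39, 0.97 and 0.52 in the CQSUM libraries and 0.86, 0.49 and -0.20 in the CQWIN libraries. Within DMSO, library 2 had both the lowest slope and the highest member median (0.25).

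**Figure D5:**
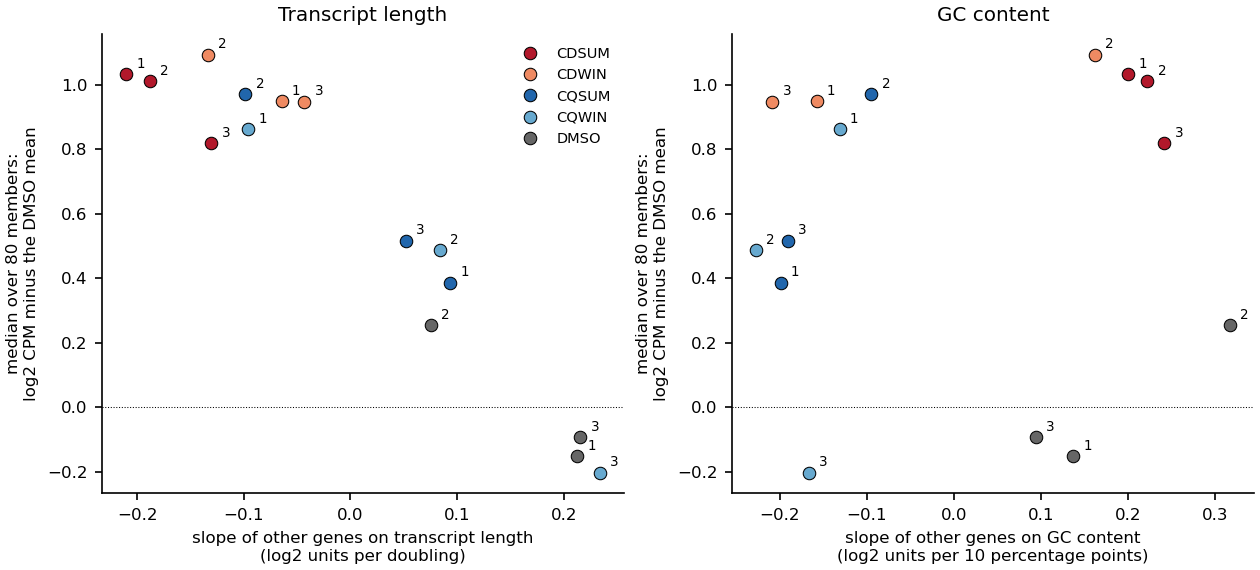
Median log2 difference of members from the DMSO mean in each library, against that library's slope of other genes on log2 transcript length (left) and on GC for each 10 percentage points (right). In each group, the library with the lowest slope on length had the highest member median; CQWIN 3 (slope 0.234, median -0.20) lay with DMSO 1 and DMSO 3.

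When both trends, fitted on the other genes of each library, were removed, fewer members were called. With CDSUM 36 were higher and 4 lower, where 11.4% of all genes were higher and 27.7% lower. With CDWIN 54 were higher and 1 lower (13.3% and 15.7% of all genes), and with CQSUM 13 were higher and 1 lower (7.45% and 8.99%). With CQWIN 3 were higher and 3 lower (6.97% and 8.14%), a share of members no larger than that of all genes. The median over members was then 0.31, 0.49, 0.26 and 0.15 with CDSUM, CDWIN, CQSUM and CQWIN, against -0.21, -0.069, -0.032 and -0.027 over all genes. With coding length in place of transcript length, a choice made after seeing that RPL37, RPS27L and other members carry long annotated transcripts, 30 were higher and 7 lower with CDSUM (10.4% and 31.2% of all genes) and 55 and 1 with CDWIN (14.1% and 19.6%). With CQSUM these counts were 23 and 1 (8.57% and 12.4% of all genes), and with CQWIN 8 and 1 (7.57% and 10.3%). Not all members called higher here were called higher as tested. By transcript length, 35 of 36 were with CDSUM, 54 of 54 with CDWIN, 6 of 13 with CQSUM and 2 of 3 with CQWIN. By coding length the same counts were 30 of 30, 54 of 55, 13 of 23 and 4 of 8. RPL31 was higher in all 4 comparisons under both lengths, at 0.93, 1.05, 0.74 and 0.60 with transcript length and 0.77, 1.02, 0.77 and 0.64 with coding length. RPL29, chosen here after its values were seen, was the other member of which this held. With transcript length removed, the members lower with CDSUM were RPL36A (-1.36), RPL14 (-0.76), RPL7A (-0.47) and RPL28 (-0.37). With CQWIN they included RPL28 (-0.49) and RPL17 (-0.38). The choice of length decided the value of some members: RPL37, of 7686 annotated bases, had 1.84 with CDSUM by transcript length and 0.46 by coding length, and RPS23 had 1.44 and 0.54.

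Members rose both with and without a TOP tract that begins exactly at the annotated start. Those without one there include members whose tract begins within 5 bases, such as RPL3, RPL11 and RPS28. The split therefore does not sort members by whether they have a tract. With CDSUM, 36 of the 42 members with a tract at the annotated start rose (median 1.00), as did 20 of the 21 tested members without one there (median 0.90). With CDWIN these were 37 of 42 and 21 of 21, with CQSUM 22 of 42 and 12 of 21, and with CQWIN 8 of 42 and 3 of 21. Over all tested genes 15.3%, 18.4%, 13.7% and 11.6% rose with CDSUM, CDWIN, CQSUM and CQWIN. The 3 of 21 with CQWIN is near that share. Members without large differences, such as RPL28, RPLP2 and RPL7A, carry the tract printed above.

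Reads shared with pseudogenes limit a few members. Over all libraries RPS10 had 326 counts where its pseudogenes had 2838 (89.7%), mostly RPS10P3. RPS28 had 64.9% of its family's counts in RPS28P7, and RPL9 58.5%, nearly all in RPL9P9. In 66 members the pseudogenes held under 5%. When pseudogene counts were added to their gene, RPL9 differed by 1.32 with CDSUM and RPS28 by 0.78, and RPS10 by 0.80. RPL39 differed by 1.55 in this way, close to its own 1.56.

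The tissue-restricted or inducible paralogs RPL39L and RPS27L rose with CDSUM, CDWIN and CQSUM. RPL39L, best known from the male germ line, had 103, 104 and 84.3 CPM with CDSUM, against 45.2, 57.5 and 39.1 CPM in DMSO (1.04 ± 0.23, adjusted p = 0.00197). It also rose with CDWIN (1.07 ± 0.23) and CQSUM (0.67 ± 0.23), and gave 0.33 ± 0.23 with CQWIN. RPS27L, the paralog of RPS27, had 557, 587 and 502 CPM with CDSUM, against 213, 270.0 and 211 CPM in DMSO (1.25 ± 0.24, adjusted p = 7.99e-04). It rose by 1.23 ± 0.24 with CDWIN and 0.83 ± 0.24 with CQSUM, and gave 0.61 ± 0.23 with CQWIN (adjusted p = 0.0592).

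Other lists of the ribosome's biology were read beside the members. Over all tested genes, 15.3%, 18.4%, 13.7% and 11.6% rose and 31.2%, 23.3%, 18.8% and 15.8% fell with CDSUM, CDWIN, CQSUM and CQWIN, and the counts of each list are read against these shares. Of 7 ribosomal proteins and paralogs that the naming rule misses, 5 rose with CDSUM, 5 with CDWIN, 3 with CQSUM and 1 with CQWIN, and none fell. With CDSUM these included RPL22L1 (1.35 ± 0.26), RPL26L1 (1.28 ± 0.23) and FAU (0.82 ± 0.24), while RACK1 gave 0.20 ± 0.15. Of 15 other TOP mRNAs 14 were tested, and 7, 7, 7 and 5 rose and 3, 2, 2 and 3 fell with CDSUM, CDWIN, CQSUM and CQWIN. The elongation factor EEF1A1 (0.80 ± 0.21 with CDSUM) and TPT1 (1.41 ± 0.23) rose in all 4, whereas the poly(A)-binding protein PABPC1 (-1.11 ± 0.16) and the elongation factor EEF2 (-0.47 ± 0.16) fell in all 4. The number of TOP mRNAs that fell was near or below the share of all genes. Of 11 host genes of small nucleolar RNAs 9 were tested, and 6, 7, 5 and 3 rose in the same order, and 1 fell, with CDSUM. GAS5 rose by 0.87 ± 0.17 with CDSUM and by 0.51 ± 0.17 with CQWIN.

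Of 18 regulators of ribosomal protein transcription and translation 17 were tested, and 2, 0, 0 and 1 rose and 6, 5, 5 and 4 fell with CDSUM, CDWIN, CQSUM and CQWIN. With CDSUM the falls were close to the 31.2% of all genes. With CDSUM, MYC (-0.82 ± 0.17), LARP1 (-0.94 ± 0.22), MTOR (-1.16 ± 0.24), RPTOR of mTORC1 (-1.07 ± 0.18) and its inhibitor TSC2 (-0.96 ± 0.20) fell. Of 13 chaperones and importers of ribosomal proteins, 0, 0, 1 and 0 rose and 8, 4, 2 and 2 fell, among them the importin IPO7 with CDSUM (-2.10 ± 0.35). With CQSUM and CQWIN these falls were near the 18.8% and 15.8% of all genes. The part of the length trend in the values of these lists was not tested.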

How the data were processed

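The authors deposited raw counts for each of 58735 genes in 15 libraries, with FPKM, gene length, and log2 fold changes and adjusted p-values of their own comparisons, per the file headers. The aligner, counter, strand setting and the tool of those comparisons are not given in the sources used here. Mouse genome builds are listed in the labels, but all 58735 gene identifiers have the start and end of GENCODE 29 on GRCh38, and the labels' protocols and the design text name different library kits. The members and gene lists were chosen with earlier results of these data known.

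Counts were tested with edgeR 4.0.16 in R 4.3.3 (filterByExpr, TMM scaling, quasi-likelihood test, 1 coefficient for each group, all 15 libraries, Benjamini-Hochberg adjustment, called under 0.05). The removed genes held 0.0838% of reads, the common biological coefficient of variation was 20.5%, and 10 residual degrees of freedom remained. CPM are TMM-scaled. Levels between members were given as CPM per kb of coding sequence, since the deposited FPKM divide by the length of all exons of a gene. The fit was tested on simulated data. Alternatives were DESeq2 1.42.0, limma 3.58.1 on log2(FPKM + 1), other scalings and filters, a replicate block, removal of trends of log2 CPM on length and GC (splines with 6 degrees of freedom, fitted in each library), and leaving out each library. Members named were those fixed by role, the 6 called members with the largest differences and no overlap between groups in each comparison with DMSO, those called against the common direction, those called between exposures, the most and least abundant, and the one not tested. RPL29, RPL7A, RPL37, RPS16, RPS25 and other members named only for a count, an extreme or a printed sequence fall outside this rule and were chosen after their values were seen. Figures were drawn with matplotlib 3.10.9. Single-gene results of 1 member and 1 other gene are not reported here.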

Additional observations from a re-analysis of the deposited data

How the results depend on the processing

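The count of called members (either direction) varied as follows. With CDSUM (70) it was 40 with length and GC trends removed, whether fitted on all or on other genes, 45 with the replicate block and both trends, and 37 with coding length; without 1 library it was 61 to 75. With CDWIN (71) it was 65 to 76 without 1 library, and every other alternative was within 1.5 times. With CQSUM (42) it was 14, 14, 21 and 24 under the same 4 trend alternatives, and 1 to 72 without 1 library. With CQWIN (15) it was 31 with upper quartile scaling, 28 with no filter, 32 with DESeq2, 4 with limma, 0 with only the compared groups, 5 with the GC trend removed, 6 with length and GC (all genes, other genes, or with the block), 9 with coding or deposited gene length, and 1 to 70 without 1 library. For CDWIN against CDSUM (1) it was 0 with DESeq2 size factors, upper quartile scaling, no filter and limma, 2 with the length trend or deposited gene length, 3 with both trends (with or without the block), 19 with coding length, and 0 to 1 without 1 library. For CDSUM against CQSUM (1) it was 0 with DESeq2 size factors, upper quartile scaling and limma, 43 with no filter, 27 with only the compared groups, 2 with the replicate block or the GC trend removed, 3 with deposited gene length, 6 with both trends, 12 with the block and both, 13 with coding length, and 0 to 17 without 1 library. For CQWIN against CQSUM (0) it was 0 throughout. For CDWIN against CQWIN (0) it was 27 with no filter and 0 to 64 without 1 library. For the interaction (0) it was 1 with the length trend, both trends or the block and both trends removed, 4 with coding length, and 0 to 1 without 1 library. The causes were not tested.

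Replicate numbers did not pair the libraries: same-numbered libraries correlated at -0.537 to 0.515 in their deviations from the group means, and 14 of 30 pairs were over 0.1. With the number as a replicate block the counts were 72, 74, 52 and 19 in the comparisons with DMSO.

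Some members changed sign once a trend was removed. With CDSUM and length alone, RPL14 gave -0.62, RPL28 -0.52 and RPLP2 -0.33; with length and GC, on all genes, on other genes or with the block, RPL11 gave -0.14, -0.13 and -0.14, RPL14 -0.76, RPL28 -0.38, -0.37 and -0.37, and RPS26 -0.13. With coding length, RPL11 gave -0.17, RPL14 -0.64, RPL23A -0.065, RPL28 -0.59, RPL39L -0.18, RPL41 -0.15, RPLP1 -0.11, RPLP2 -0.41, RPS26 -0.50 and RPS28 -0.24, and RPS26 gave -0.054 with deposited length. With CDWIN, RPL28 gave -0.40 and RPLP2 -0.29 with length alone, and RPL22 -0.035 and RPS26 -0.14 with coding length. With CQSUM, RPL22 gave -0.10 with coding length, RPLP2 0.44 with the GC trend alone, and RPS6 -0.030, -0.032 and -0.030 with both trends. With CQWIN, RPL17 gave -0.38, RPL26 -0.013, -0.012 and -0.016, and RPS6 -0.069, -0.071 and -0.068 with both trends, and with coding length RPL22 gave -0.091 and RPS6 -0.0035. The median of CDWIN against CDSUM was -0.16 with no filter and that of CDSUM against CQSUM -0.11 with coding length. The alternatives with coding and deposited gene length were chosen after seeing the data.

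Scaling moved the median of all genes with CDSUM, at -0.25 with TMM, -0.10 with DESeq2 size factors and -0.08 with upper quartile scaling; the members' differences are read against it. Length trends differed between libraries of 1 group, and the CQ counts moved with several single libraries. For the members' share of counts, counting error is far below the spread between libraries. This does not extend to members with few counts, such as RPL3L (173 over all libraries) and RPS10 (326).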
